A study of Homo sapiens with 2 samples.

Results

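The thyroid target genes of PAX-8 were examined by PAX-8 ChIP-Seq in foam cells made from THP-1 macrophages and given C18-3OH, which is 3-hydroxystearic acid. The 9 genes were TG, SLC5A5, TSHR, DIO1, FOXE1, NKX2-1, SLC26A4, DUOX2 and DUOXA2. They were found by their symbols in the peak annotation table, and each peak assigned to one of them was counted once. This gave 12 of the 45360 peaks in the list. These peaks were assigned to 7 of the 9 genes. SLC26A4 and DUOXA2 had no line in the table and were left as unassigned.

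The list set 1 PAX-8 ChIP library against 1 library of Input, the same kind of chromatin with no antibody pull-down. Both came from THP-1, a human cell line established from a monocytic leukemia. The cells were differentiated with 160 nmol/L PMA, a phorbol ester, for 24 h, kept in fresh medium for 6 to 12 h, loaded with ox-LDL for 48 h and then given C18-3OH. The ox-LDL dose is 50 mg/mL in the sample labels and the same number of μg/mL in the methods. The list holds no untreated cells and no second pair of libraries, so no condition could be compared and no value has a replicate. The paper states that its ChIP-Seq experiment was independently repeated, but only 1 pair of libraries was available here. The intervals of tags and of their ratios to background cover counting error only. Those of shares treat genes or peaks as independent draws. None covers variation between libraries. Library depth is not stated in the sources used here. A peak list measures neither transcription nor cell identity, so macrophage markers could not be checked in it.

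PAX-8 is a paired-box transcription factor that is best known from the thyroid follicular cell, where it acts together with NKX2-1 and FOXE1. In that cell, TSHR receives the pituitary signal TSH, and SLC5A5 takes iodide up from the blood. SLC26A4 moves iodide across the apical membrane, and DUOX2 with its maturation factor DUOXA2 makes the hydrogen peroxide that is needed to bind iodide to TG, the protein on which thyroid hormone is built. DIO1 converts thyroxine to the more active triiodothyronine.

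A peak was assigned to 7 of the 9 thyroid genes, which is 77.8% (Wilson 95% interval 45.3% to 93.7%), against 54.8% of 20056 protein-coding genes. A promoter peak was assigned to 2 of the 9, which is 22.2% (6.32% to 54.7%), against 13.3% of protein-coding genes. Both intervals include the value over all genes, but they are wide with 9 genes, which are not replicates. Whether the thyroid genes differ from all genes was not tested. Of the 12 peaks, 7 were in introns, 2 in promoters, 2 intergenic and 1 in an exon. None was in the class upstream, which holds 16.6% of all peaks. Introns hold 34.9% of all peaks, promoters 7.48% and exons 2.24%, and 38.7% are intergenic. Relative to the start site of its own gene, 1 peak was upstream and 11 were downstream, of which 2 lay past the end of the transcript. How all peaks of the list split by direction was not analysed here.

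Strength was read from 3 listed values. The tag count is the number of reads of the ChIP library in the peak, the fold enrichment is a ratio with no stated formula, and the score is the negative logarithm of the p-value multiplied by 10. From tags and score, the background was solved as the Poisson mean at which more than the listed tags would occur with the listed probability, taking base 10. The 12 peaks held a median of 15.5 tags (range 11 to 44), against 14 tags over all peaks. Their median fold enrichment was 6.945 (range 5.00 to 10.62), against 7.35 over all peaks, and 6 of the 12 were below that median. Tags over background had a median of 3.71 (range 2.46 to 6.19) in the thyroid genes, against 3.65 over all peaks. A fold enrichment of 10 or more was listed for 1 of the 12 peaks, against 4.63% of all peaks.

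**Figure D1:**
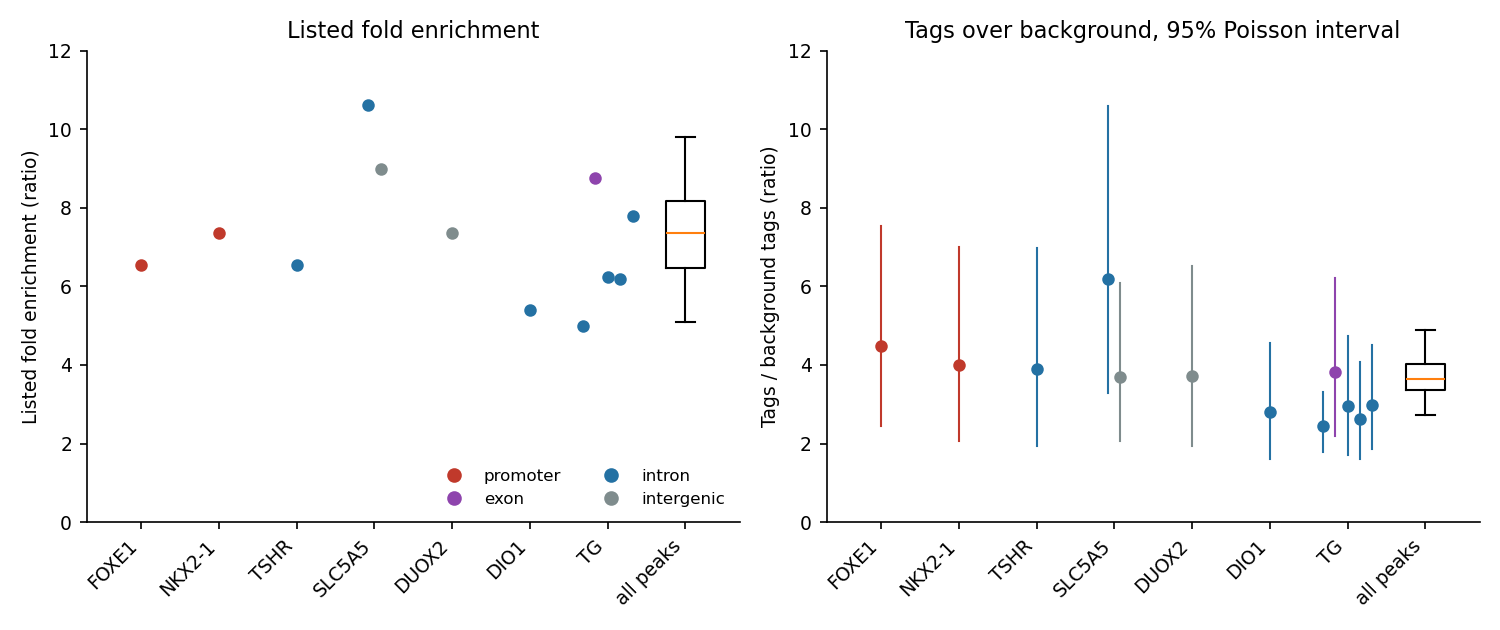
Strength of the 12 peaks by gene, as the listed fold enrichment (left panel, ratio) and as tags over background (right panel, ratio, bars are 95% Poisson intervals of the tags), coloured by peak class. The box at the right of each panel gives the quartiles and the central 90% of all 45360 peaks (45356 for tags over background). The SLC5A5 intron peak, at 10.62 and 6.19, is the highest point in both panels, and the intervals of all 12 peaks overlap.

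Both transcription factor genes among the 9 had a promoter peak. FOXE1 encodes a forkhead factor of thyroid development. Its peak, at chr9:100613580-100614103 on hg19, held 14 tags (exact Poisson 95% interval 7.65 to 23.5), with a fold enrichment of 6.54, a score of 59.77 and an FDR of 0.21%. It was centred 1666 bp upstream of the start site at 100615507 on the plus strand. This was the one peak of the 12 that lay upstream of its gene. The same interval was also assigned to PTCSC2, a noncoding RNA gene on the opposite strand, as a promoter peak 1521 bp downstream of its start site. By score, 8703 peaks of the list were higher than the FOXE1 peak, whereas by fold enrichment 28482 were. The FOXE1 peak thus stood high in the list by p-value and below the middle by fold enrichment.

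NKX2-1 encodes a homeodomain factor of thyroid, lung and forebrain. Its peak, at chr14:36987471-36987974, held 12 tags (6.20 to 20.96), with a fold enrichment of 7.35, a score of 47.99 and an FDR of 0.16%. NKX2-1 has 2 listed start sites on the minus strand, at 36988761 and 36989437, and the peak was centred 1039 bp and 1715 bp downstream of them. The peak therefore lay inside the gene, which spans 3.83 kb from the outer start site. It was also assigned to SFTA3, at 1039 bp from a start site shared with NKX2-1, and to the antisense gene NKX2-1-AS1, whose start site lies 760 bp away. One interval thus accounts for all 3 promoter assignments. The next peak was 37.5 kb away and was assigned to NKX2-8, a related homeobox gene, with 15 tags and a fold enrichment of 9.59.

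Neither promoter peak reached the start site itself. The FOXE1 peak ended 1404 bp before it, and the NKX2-1 peak began 787 bp after the inner one. The 250 bases before the FOXE1 start site and before the outer NKX2-1 start site are shown because these are the members with a promoter peak. They were taken from RefSeq on GRCh38.p14, a later build than that of the list. Short forms of the PAX core, GTCACG and GTCATG, were searched on both strands in windows of 300 bp, from 250 bp before a start site to 50 bp after it. A match would be printed in capitals, and there was none in either.
FOXE1, plus strand, chr9:97852976-97853225: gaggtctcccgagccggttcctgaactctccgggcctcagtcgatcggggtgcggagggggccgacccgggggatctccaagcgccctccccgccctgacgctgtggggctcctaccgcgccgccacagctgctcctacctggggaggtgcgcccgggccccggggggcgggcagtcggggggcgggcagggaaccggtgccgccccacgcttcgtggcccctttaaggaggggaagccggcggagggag
NKX2-1, outer start site, minus strand, chr14:36520233-36520482: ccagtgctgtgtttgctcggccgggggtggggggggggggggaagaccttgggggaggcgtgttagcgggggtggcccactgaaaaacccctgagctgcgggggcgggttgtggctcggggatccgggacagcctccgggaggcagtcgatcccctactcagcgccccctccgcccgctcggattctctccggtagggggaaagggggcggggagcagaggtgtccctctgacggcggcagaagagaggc
GC content was 75.6% in the FOXE1 stretch and 70.8% in the NKX2-1 stretch. At least one of the 2 forms was found in 16.5% of 35116 such windows over all genes. In the members, 9 windows of 8 genes were searched and 1 held a match. The absence of these letters from a window says nothing of the sequence under the peaks, which lies outside these windows.

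TSHR encodes the receptor for TSH. Its 1 peak, at chr14:81519808-81520281, was in an intron 98.1 kb downstream of the start site, near the middle of a transcript of 191 kb. It held 11 tags (5.49 to 19.7), the smallest number that any peak of the list has and one that 13.8% of the peaks share. Its fold enrichment was 6.54, its score 44.03 and its FDR 0.14%. No peak of any assignment was centred within 44.0 kb of the TSHR start site. TSHR had fewer peaks than most genes of its length. Of 1228 other protein-coding genes with an assigned peak and a span within 1.5 times that of TSHR, 90.8% had more than 1, with a median of 4. These genes were counted only where they had a peak.

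SLC5A5 encodes the sodium iodide symporter. It had 2 peaks, and these had the 2 highest fold enrichments among the 12. The first, at chr19:17994233-17994609, was in an intron 11.7 kb downstream of the start site. It held 13 tags (6.92 to 22.2) in 377 bp, the shortest of the 12 intervals. Its fold enrichment was 10.62, its score 72.76 and its FDR 0.33%. The score was the highest of the 12, and so was the FDR, at the same value as in the first TG peak. The same held across the 12 peaks. The listed FDR rose with the score almost throughout, from 0.13% at a score of 40.19 to 0.33% at 72.76. A lower listed FDR among these peaks therefore did not mark a stronger peak. The SLC5A5 intron peak was exceeded by 940 peaks in fold enrichment, and 96.0% of the list lay below it. By tags, 32.9% of peaks lay below it. The background under it was 2.10 tags, and its ratio of 6.19 (3.30 to 10.6) was the highest of the 12.

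The other SLC5A5 peak, at chr19:18011889-18012571, was classed as intergenic. It lay 29.5 kb from the start site and 6.25 kb past the end of the transcript. It held 15 tags (8.40 to 24.7), with a fold enrichment of 8.99 and a score of 52.33. The ratio to background was 3.70 (2.07 to 6.10), so the intervals of the 2 SLC5A5 peaks overlap. It was 4.13 kb from a peak assigned to CCDC124, which had 13 tags and a fold enrichment of 6.54. Of 2293 genes with a peak and a similar span, the median number of peaks was 2, the number that SLC5A5 had.

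SLC26A4 encodes pendrin, the apical iodide exchanger, and no peak was assigned to it. In the RefSeq gene order it lies between GPR22 and CBLL1-AS1, the nearest genes on either side with a start site in the list, which are 275 kb apart. CBLL1-AS1 is named LOC101927974 in the list. One peak lay between these start sites, at chr7:107373484-107374064. It held 14 tags, with a fold enrichment of 8.17, and was assigned to CBLL1-AS1, 10.3 kb from its nearest start site. No start site of SLC26A4 is listed on hg19, so the distance of this peak from SLC26A4 was not analysed here. A gene with no assigned peak is not thereby shown to lack one.

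DUOX2 encodes an oxidase that makes hydrogen peroxide. Its 1 peak, at chr15:45369511-45370052, was intergenic, 36.6 kb from the start site at 45406359 and 15.1 kb past the end of the transcript on the minus strand. It held 12 tags (6.20 to 20.96), with a fold enrichment of 7.35, a score of 44.79 and an FDR of 0.15%. The fold enrichment equals the median of the list and is shared by 6003 other peaks. No peak lay inside the DUOX2 transcript or within 10 kb of its start site. The nearest was centred 13.8 kb away, at chr15:45419974-45420410, and was assigned to the neighbouring pair DUOX1 and DUOXA1, a related oxidase and its maturation factor. That peak held 11 tags with a fold enrichment of 6.49.

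DUOXA2 had no assigned peak, but its start region can be placed through DUOX2. The 2 genes are divergent, and in RefSeq their start sites are 154 bp apart on GRCh38.p14. The distance of 13.8 kb from the DUOX2 start site to the nearest peak centre therefore also describes DUOXA2 to within that spacing, if the spacing is the same on hg19. The 153 bases between the start sites are shown because both genes share them. They contain neither GTCACG nor GTCATG.
DUOX2 to DUOXA2, strand of DUOX2, chr15:45114173-45114325: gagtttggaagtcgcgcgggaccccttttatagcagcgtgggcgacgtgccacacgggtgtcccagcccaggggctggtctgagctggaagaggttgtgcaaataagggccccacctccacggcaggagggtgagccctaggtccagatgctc
The stretch has a GC content of 63.4%.

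DIO1 encodes a deiodinase. Its 1 peak, at chr1:54363741-54364268, was in an intron 4145 bp downstream of the start site that its 7 listed transcripts share. It held 16 tags (9.15 to 26.0), with a fold enrichment of 5.40, a score of 40.19 and an FDR of 0.13%. The lowest score in the list is 40, and 44676 peaks were higher than the DIO1 peak. It was thus the weakest of the 12 by p-value. Its listed FDR was also the lowest of the 12, among which FDR rose with the score almost throughout. It was not weak by tags, where 68.1% of peaks lay below it. The background under it was 5.70 tags, 1.82 times the genome-wide value per kb, and the ratio was 2.81 (1.61 to 4.56). The DIO1 window held the one match among the members, to GTCATG on the minus strand, and its 250 bases before the start site are shown with the match in capitals.
DIO1, plus strand, chr1:53893937-53894186: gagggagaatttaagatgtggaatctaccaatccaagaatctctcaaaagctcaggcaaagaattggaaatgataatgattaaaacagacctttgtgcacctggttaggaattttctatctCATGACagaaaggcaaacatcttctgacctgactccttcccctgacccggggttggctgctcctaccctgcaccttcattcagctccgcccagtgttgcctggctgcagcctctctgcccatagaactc
The match begins 129 bp before the start site. GTCATG was found in 8.16% of all windows and GTCACG in 9.02%. The DIO1 peak lies 3882 bp downstream of the start site at its nearer edge, outside this window.

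TG encodes thyroglobulin and was the member with the most peaks. All 5 lay inside its transcript on chromosome 8, which spans 268 kb from 133879202 on the plus strand. In order from the start site they lay 33.8, 66.7, 73.0, 131 and 217 kb downstream, and no peak of any assignment was closer. The first, at chr8:133912058-133913901, was in an intron, held 44 tags (32.0 to 59.1) and had a fold enrichment of 5.00. It was also the longest of the 12, at 1844 bp. By tags 99.03% of the list lay below it, and by fold enrichment 4.65% did.

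The TG peak at chr8:133945593-133946131 was in an exon and held 16 tags (9.15 to 26.0) with a fold enrichment of 8.75, the highest of the 5. The next, 5.72 kb further on at chr8:133951850-133952522, held 17 tags (9.90 to 27.2) with 6.24. The fourth, at chr8:134010110-134010853, held 20 tags (12.2 to 30.9) with 6.19. Fold enrichment therefore did not follow the tags, and the peak with the most tags had the lowest value.

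The last TG peak, at chr8:134095634-134096546, held 22 tags (13.8 to 33.3), with a fold enrichment of 7.80. It was also assigned to SLA, an adaptor gene of blood cells that lies within TG on the opposite strand, as an intron peak 18.8 kb from the SLA start site. TG thus had 4 peaks that were assigned to no other gene. A further 3 peaks lay inside the TG transcript and were assigned to SLA and not to TG. One of these was a promoter peak of SLA, with 25 tags and a fold enrichment of 9.29, higher than any TG peak. The number of TG peaks was that of other genes of its length, since 854 genes with a peak and a similar span had a median of 5 (quartiles 3 and 8).

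**Figure D2:**
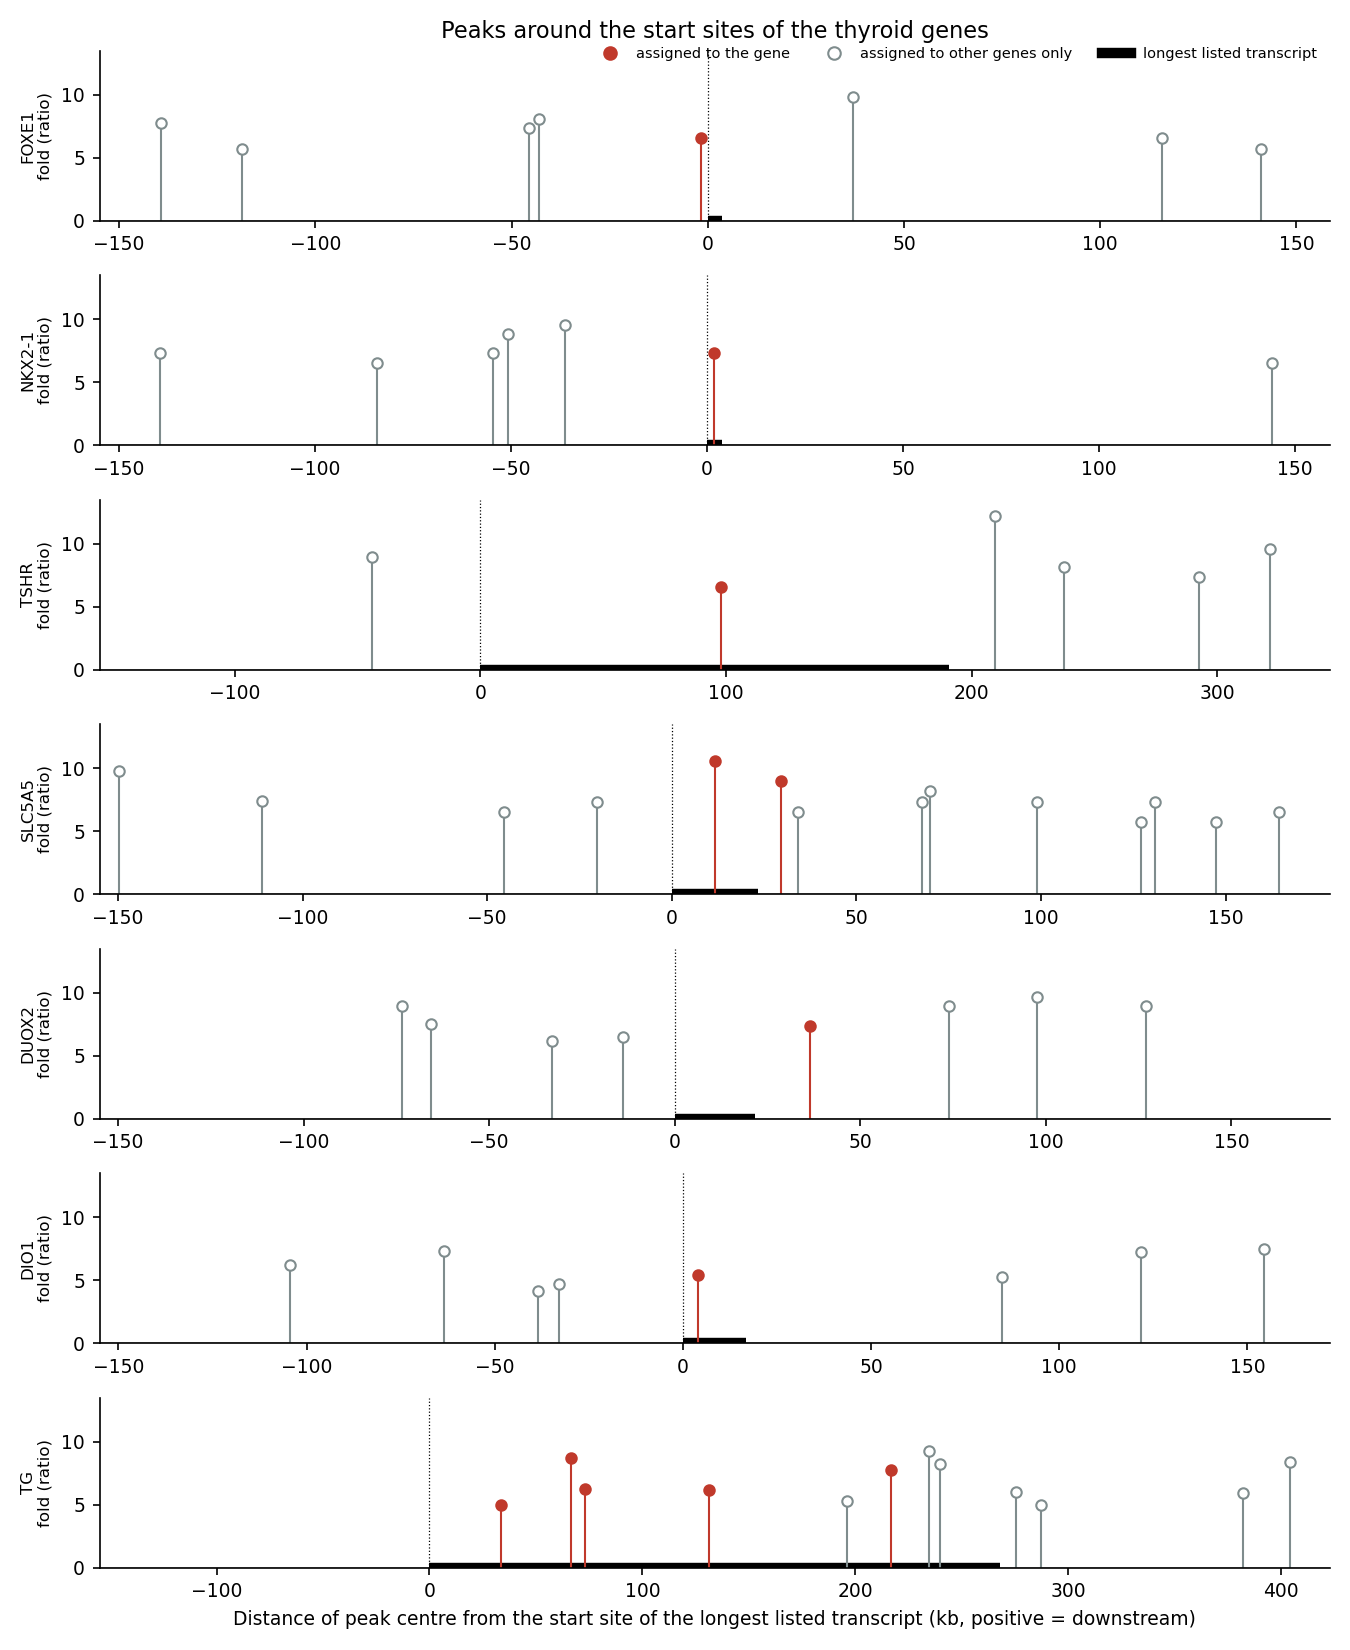
Peaks within 150 kb of the transcripts of the 7 genes with an assigned peak, by distance of the peak centre from the start site (horizontal axis, kb, downstream positive) and fold enrichment (vertical axis, ratio). Filled points are peaks assigned to the gene, open points are peaks assigned to other genes only, and the black bar is the longest listed transcript. FOXE1, NKX2-1 and DIO1 have a peak of their own within 5 kb, and around TG 5 filled and 3 open points lie over the bar.

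Most of the peaks around these genes were assigned to other genes. Within 150 kb of the transcript there were 12 peaks at TG, 14 at SLC5A5, 8 each at DIO1, FOXE1 and DUOX2, 7 at NKX2-1 and 6 at TSHR. Within 100 kb of the start site there were 8 at SLC5A5, 7 at DUOX2, 5 each at DIO1 and NKX2-1, 4 at FOXE1, 3 at TG and 2 at TSHR, against a median of 5 (quartiles 3 and 7) over 10994 protein-coding genes with a peak. Within 10 kb there was 1 each at FOXE1, NKX2-1 and DIO1 and none at the other 4. Over the same 10994 genes the median was 1, and 44.2% had none.

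The background differed between the genes. Over the list, 55.7% of 45356 peaks lay within 1% of a single genome-wide value of 5.94 tags per kb. This held for 5 of the 12 peaks, 41.7%, namely those of FOXE1, NKX2-1, TSHR and DUOX2 and the intergenic peak of SLC5A5. Where the p-value was read as the chance of at least the listed tags, 2 of the 12 peaks lay at the most frequent background, against 22.8% of all peaks. The SLC5A5 intron peak lay at 0.94 times the genome-wide value of 5.94 tags per kb. The 5 TG peaks lay at 1.31 to 1.72 times and the DIO1 peak at 1.82 times.

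These values moved with the chromosome. On chromosome 8, 1.76% of 2953 peaks were at the genome-wide value (Wilson 95% interval 1.35% to 2.30%), and the median was 1.32 times. On chromosome 1, which holds DIO1, the share was 25.6% (24.4% to 26.9%) and the median was 1.23 times. On chromosome 9, which holds FOXE1, the share was 46.4% (44.4% to 48.4%) and the median was 1.05 times. On chromosomes 14, 15 and 19 the share was 72.2% to 79.2%. Of the peaks within 1 Mb of each TG peak, 41 to 44 in number, none was at the genome-wide value, and their median was 1.39 to 1.44 times. Within 1 Mb of DIO1, 85 peaks had a median of 1.49 times and a median of 20 tags. The median was 18 tags around each TG peak, and 13 or 14 around the genes on chromosomes 9, 14, 15 and 19. The higher tag counts of TG thus came with a higher background, and its ratios were 2.46 to 3.82, against 2.81 to 6.19 in the other genes. This link is in part built in, here and in the peaks within 1 Mb. The background was solved from tags and score, and every listed peak has a score of at least 40. On a higher background a peak therefore needs more tags to be listed and can be listed at a lower ratio. Without TG, the 7 remaining peaks had a median of 13 tags, a fold enrichment of 7.35 and a ratio of 3.91. What raised the background there was not tested.

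**Figure D3:**
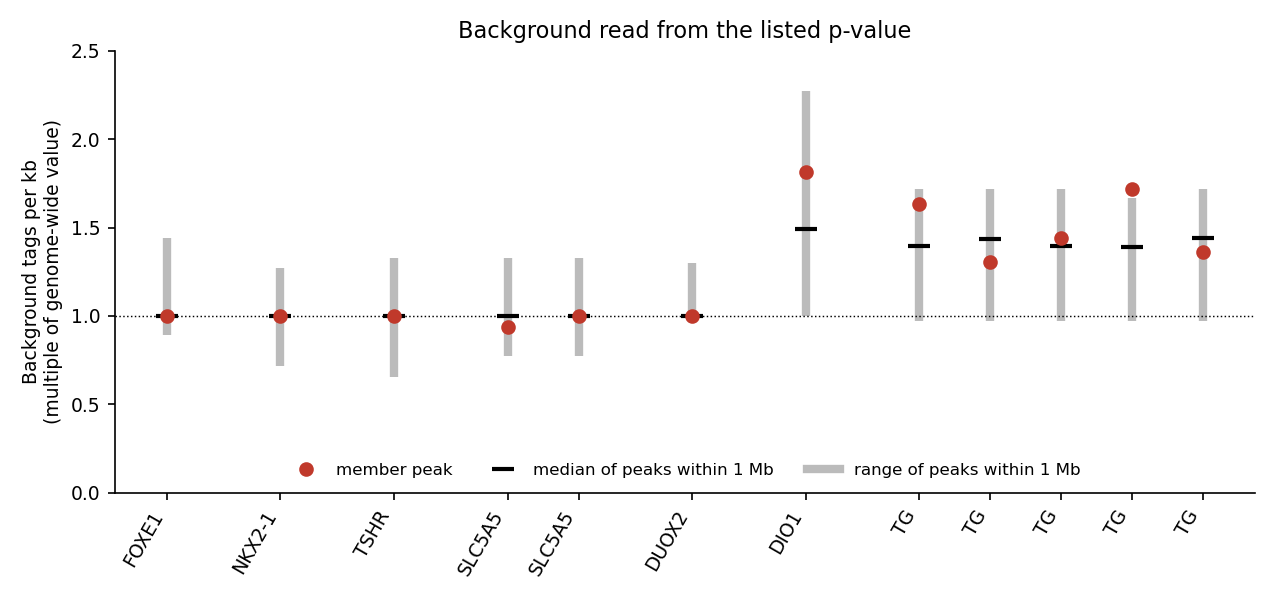
Background per kb at each of the 12 peaks (red points) as a multiple of the genome-wide value of 5.94 tags per kb (vertical axis), with the median (black) and range (grey) of the other peaks within 1 Mb. The TG and DIO1 points, at 1.31 to 1.82, stand above 1 together with the medians around them, and 5 of the other 6 points lie at 1.

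Ordered by tags over background, the SLC5A5 intron peak came first at 6.19, followed by FOXE1 at 4.50, NKX2-1 at 4.01, TSHR at 3.91 and the TG exon peak at 3.82. DUOX2 at 3.73 and the intergenic SLC5A5 peak at 3.70 came next, and DIO1 at 2.81 and the 4 TG intron peaks at 2.46 to 2.98 were lowest. The highest lower bound, 3.296 for the SLC5A5 intron peak, was still below the lowest upper bound, 3.301 for the first TG peak. No 2 of the 12 intervals were therefore separate. Overlap of intervals is not a test, and whether any 2 of the peaks differ beyond counting error was not tested. In all 12, the summit lay in the central part of the interval, between 26.6% and 67.0% of its length.

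The other genes of the thyroid axis were read from lists. Of 12 further genes of the thyroid gland, 11 had a peak (91.7%, 64.6% to 98.5%) and 3 a promoter peak. The promoter peaks were at DUOX1 and DUOXA1, which share 1 interval, and at SLC26A7, an anion transporter, with 17 tags and a fold enrichment of 8.06 at 974 bp upstream. The highest fold enrichments were 11.44 in introns of ANO1 and KCNQ1, a chloride and a potassium channel, which had 10 and 20 peaks. IYD, which recovers iodide, followed with 9.08. Over all protein-coding genes the share was 54.8%. The genes of a list are not replicates, and the lists were chosen with earlier results known, so the interval tests no difference. The genes with a peak had a median span of 37.0 kb, against 33.7 kb over all protein-coding genes with a peak, and the part of gene length in the count was not tested.

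Of 8 pituitary and hypothalamic genes, 6 had a peak (75%, 40.9% to 92.9%), an interval that includes the 54.8% of all protein-coding genes. No peak was assigned to TSHB, the specific subunit of TSH, or to TRHR. The highest fold enrichments were 9.42 at LHX3 and 9.39 at CGA, the other TSH subunit, both intergenic. Of 10 genes that carry the TSH receptor signal, 9 had a peak (90.0%, 59.6% to 98.2%), against 54.8% of all protein-coding genes. This difference was not tested. The median span of the 9 genes was 101 kb, against 33.7 kb over all protein-coding genes with a peak. The part of gene length was not tested here either. PRKAR1A and PRKACA, which encode a regulatory and a catalytic subunit of protein kinase A, had promoter peaks 295 and 618 bp upstream. The fold enrichments there were 7.35 and 8.99. PDE4D, a phosphodiesterase with 22 peaks over 1527 kb, had the highest value, 11.44.

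Thyroid hormone transport, activation and receptors had the fewest genes with a peak, 4 of 12 (33.3%, 13.8% to 60.9%). The interval includes the 54.8% of all protein-coding genes. The THRB receptor gene had 6 peaks, of which 1 was in a promoter 529 bp downstream of a start site, with 12 tags and a fold enrichment of 7.35. THRA had 1 upstream peak at 9.80, DIO3, which inactivates the hormone, had 3 with 8.99 at the highest, and TTR, a carrier, had 1 at 8.97. The other deiodinase, DIO2, had no assigned peak. The promoter shares ran from 8.33% to 25% over the lists other than the 9 thyroid genes, and each interval includes 13.3%.

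**Figure D4:**
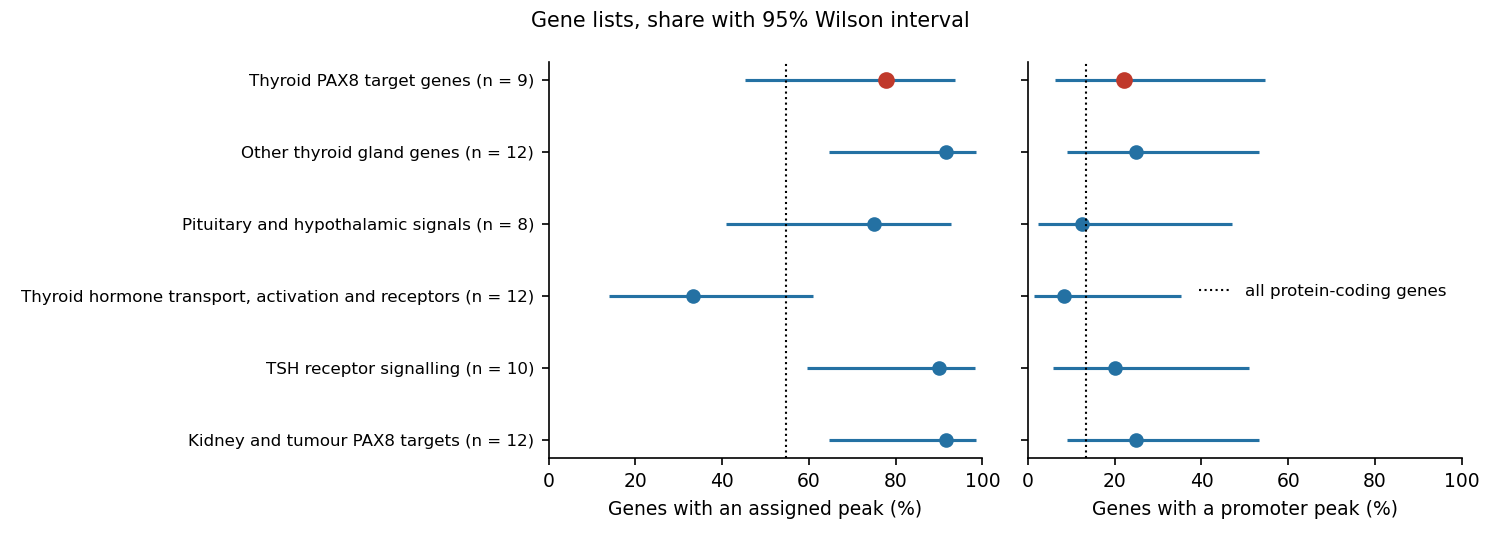
Share of genes with an assigned peak (left, %) and with a promoter peak (right, %) in 6 gene lists, with 95% Wilson intervals. The dotted lines mark all protein-coding genes, at 54.8% and 13.3%. The 9 thyroid target genes (red, 77.8% and 22.2%) have intervals that include both lines.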

How the data were processed

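PAX-8 ChIP and Input libraries of C18-3OH-treated foam cells were sequenced by the authors, and the deposited peak list on hg19 was analysed. Per the file headers it gives the tag count per peak, the fold enrichment as a ratio, a score, which is the negative logarithm of the p-value multiplied by 10, and the FDR in percent. FastQC and hg19 are named in the submitters' processing notes. No aligner, peak caller or depth is stated in the sources used here. Of 103443 lines, 1 for each peak and transcript, peaks with the same interval were counted once. Distances are from the peak centre to a listed start site, and promoter means -2000 to 1999 bp. The 4 peaks at the largest score, 3100, have no background value. Symbols were matched to RefSeq by accession (15628), symbol (58) or synonym (34), and 16 were not matched. All 9 members matched, and 8 had a promoter window.

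The members and lists were chosen with earlier results of these data known. Named genes were the 9 members, list genes with a promoter peak or among the 3 highest fold enrichments of their list, genes sharing a member's peak, and neighbours of members with no peak. One list gene that the rule names is not reported here. Genes at the nearest peak, genes with no peak and the SLA peaks inside TG were named after their values were seen. No test was run, since there is 1 library per group. Intervals are Wilson for shares and exact Poisson for tags. The background step was tested on simulated data. Alternatives were other limits on peaks, promoter windows, merging and forms of the p-value. Tables were handled with pandas 2.3.3 and numpy 2.4.6 under Python 3.11.15, intervals were computed with scipy 1.17.1, and plots were drawn with matplotlib 3.10.9.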

Additional observations from a re-analysis of the deposited data

How the results depend on the processing

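Of 22 alternatives, 14 left a count within 1.5 times or a median within its interval. An FDR of at most 1% left 7 genes, 12 peaks and 2 promoter genes, and merging within 500 bp left 12 peaks. Neither limit could change a result. The highest FDR of the 12 peaks was 0.33%, and their smallest gap to another peak was 4.13 kb. A fold enrichment of at least 10 left 1 gene and 1 peak, SLC5A5, and tags at or above the median of the list left 4 genes. A promoter window of 1 kb left 0 genes, its upstream 2 kb alone left 1, FOXE1, and 5 kb gave 3. Tags over background in place of fold enrichment gave a median of 3.71, and tags per kb in place of tags 24.7, both on other scales by construction. With the chance of at least the listed tags, 2 peaks were at the most frequent background, a form that holds for 22.8% of all peaks. Chosen after the data were seen, leaving out peaks shared with other genes left 5 genes and 9 peaks, and counting by position inside the transcript gave 12. Those 12 are not the same set, since 9 are peaks of the members and 3 are the SLA peaks inside TG. FOXE1 and DUOX2 have none by that count. No paired analysis was possible because a single ChIP library and a single Input library gave the values. The depth is unknown, so a gene with no peak is not shown to be unbound.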

Other observations

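PTCSC2, a noncoding RNA gene that runs away from FOXE1, had 4 peaks in all. Besides the one it shares with FOXE1, 3 lay in its introns, with 11, 12 and 17 tags and fold enrichments of 5.72, 7.35 and 8.12. The strongest peak near FOXE1 by score, 99.02, was assigned to TRMO, with 26 tags and a fold enrichment of 9.80, 37.1 kb downstream of the FOXE1 start site.

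NKX2-8, next to NKX2-1, had 4 peaks, each intergenic and with 12 to 15 tags. Fold enrichments were 9.59, 8.85, 7.35 and 6.54. Near TSHR, an intergenic peak assigned to SNORA79 had 16 tags and a fold enrichment of 12.23, higher than any peak of the 9 thyroid genes. It lay 111 kb beyond the TSHR peak.

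Of 12 PAX8 targets of kidney and tumours, 11 had a peak (91.7%, 64.6% to 98.5%), against 54.8% of all protein-coding genes. This difference was not tested. The median span of the 11 genes was 25.8 kb, against 33.7 kb over all protein-coding genes with a peak. The median fold enrichment was 6.945 over the 12 peaks of the thyroid genes, against 6.54 over the 44 peaks of these genes. SALL1, a zinc finger gene of kidney development, had a promoter peak of 12 tags and a fold enrichment of 5.72, 1818 bp upstream of a start site. RET and GATA3 had 1 promoter peak each, at 5.72 and 8.99. The highest value, 11.90, was in an exon of TERT, and LHX1 had no assigned peak.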
